A study of Mus musculus with 36 samples.

Results

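The sirtuin family of the mouse is *Sirt1* to *Sirt7*, and it was followed here through B cell progenitors that differed in stage, in genotype and in the form of Pax5 they carried. Members were taken by symbol from the 3 RNA-seq tables of the study, where they were 7 of 46078, 7 of 35896 and 7 of 18721 entries. All 7 passed the filter on low values in each table, which asked for 2 or more of the 8 libraries to reach 10 normalized counts and left 17649, 13345 and 13651 genes to test. The question was whether sirtuins other than *Sirt7* shift between the pro-B and pre-B stages or when *Sirt7* is lost.

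Sirtuins are enzymes that use NAD+ to remove acetyl and other acyl groups from lysines. SIRT1, SIRT6 and SIRT7 act mostly in the nucleus, where they deacetylate histones and transcription factors, and SIRT7 is enriched in the nucleolus. SIRT2 is largely cytoplasmic and is known as a tubulin deacetylase, whereas SIRT3, SIRT4 and SIRT5 are mitochondrial. Each reaction consumes NAD+, which sirtuins share with poly-ADP-ribose polymerases and with the NAD+ glycohydrolase CD38. Pro-B cells are the dividing progenitors that rearrange the heavy chain locus, and pre-B cells are the stage that follows.

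Pro-B (IgM-CD43+) and pre-B (IgM-CD43-) cells of the B lineage had been sorted from the bone marrow of wild-type and *Sirt7*-/- mice on the 129Sv background. They gave 4 groups of 2 libraries. Numbers in the labels were read as 2 mice per genotype with 1 library per stage and mouse. A second table held *Pax5*-/- pro-B cells from C57BL/6 mice with an empty retroviral vector (EV), with wild-type Pax5 (Pax5WT), or with Pax5 in which the lysine that SIRT7 acts on was replaced by glutamine (K198Q, which resembles an acetylated lysine) or by arginine (K198R, which cannot be acetylated). The last table held cultured pro-B cells, wild-type with EV or *Sirt7*-/- with EV, Pax5WT or K198R, and these tables too had 4 groups of 2 libraries. ChIP-seq against Pax5 in *Pax5*-/- cells with each of the 3 forms gave 6 peak lists, 2 per form. Cultured cells grew on OP9 stromal cells inactivated with mitomycin C, with IL-7, SCF and FLT3-L. The *Sirt7* deletion was present in every cell of the mice and removed exons 4 to 10. The labels call the *Pax5*-/- cells bone marrow cells, whereas the methods speak of fetal liver progenitors. The sorted mice were adults.

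Counts assigned to genes, recovered from the normalized values, added up to between 50004827 and 55536608 per sorted library. Normalized counts of a *Pax5*-/- library added up to 28865461 at the lowest and 30520853 at the highest, and those of a wild-type or *Sirt7*-/- cultured library to 27814214 and 30160880. The 3 tables were normalized separately, so that levels are compared only within a table. The stage of a sorted library was read from its title and description. The cell type field of the same labels called all first replicates pro-B and all second replicates pre-B, and went against the titles for 4 of the 8 libraries. Markers followed the titles: the summed normalized counts of 9 cell cycle genes, *Mki67* the most abundant, were 320890 and 336174 in wild-type pro-B and 86022 and 120389 in wild-type pre-B libraries, and 291372 and 317135 against 116264 and 175204 in *Sirt7*-/- libraries. All 12 B progenitor markers examined were above 0 in each sorted library, with *Cd79a* the most abundant.

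*Sirt7* itself checked the genotypes. It lies at chr11:120618372-120625240 of mm10 on the minus strand and spans 6869 bases. Among pro-B libraries the wild-type pair had 2692 and 2533 normalized counts and the *Sirt7*-/- pair 363 and 366. Pre-B libraries had 5613 and 5219 in wild-type and 1066 and 821 in *Sirt7*-/- mice. Among cultured cells with EV they were 1324 and 905 in wild-type and 336 and 387 in *Sirt7*-/- libraries. Each *Sirt7*-/- library was below each wild-type library of its comparison, with log2 fold changes of -2.84 (SE 0.143, limma adjusted p = 0.00292), -2.53 (SE 0.143, limma adjusted p = 0.00931) and -1.60 (SE 0.215, limma adjusted p = 0.0251). Transcripts named *Sirt7* were not at 0 in *Sirt7*-/- cells. The fit left 14% of the wild-type level in pro-B cells (95% interval 11.1 to 17.7), 17.3% in pre-B cells (13.7 to 21.9) and 33% in cultured cells (23.4 to 46.6). Exons 1 to 3, which the deletion spares, make up 381 of the 1727 bases of the reference transcript of 10 exons, 22.1%, and which exons the remaining counts came from was not tested. Leaving out *Sirt7*-/- or wild-type pro-B replicate 1 raised the adjusted p of the sorted pro-B cells to 0.0633 and 0.0586, and leaving out any cultured library but wild-type replicate 2 raised that of the cultured cells to between 0.0737 and 0.17.

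Pax5 peaks were found at the starts of 5 sirtuin genes in at least 1 of the 6 lists, and at the starts of *Sirt3* and *Sirt4* in 0 lists. The share of all genes was taken per list and not over the lists together, so that the 5 have no share to be read against. A peak was counted where its summit lay within 1000 bases of an annotated start. In the lists for Pax5WT 2 of the 7 members had such a peak in each replicate, where 23% and 26.4% of 21951 protein-coding genes did. The lists for K198R gave 2 and 4 members against 27.9% and 29% of genes, and those for K198Q gave 0 and 0 members against 9.93% and 10% of genes. The K198Q lists were shorter, with 3750 and 3957 peaks against 10646 and 11830 for Pax5WT and 12158 and 13997 for K198R. *Sirt5* had a peak in 3 lists, with an enrichment over input of 6.74 in Pax5WT replicate 1 and 4.80 and 9.99 in the K198R replicates. *Sirt2* had a peak in 3 lists too, at 3.70 and 4.46 in the Pax5WT replicates and 4.95 in K198R replicate 2. *Sirt6* had a peak in Pax5WT replicate 2 (4.78) and K198R replicate 1 (5.33), whereas *Sirt1* (5.44) and *Sirt7* (3.54) had one in K198R replicate 2. In the list of K198R replicate 2 the names of the peaks begin with R3, which leaves the replicate it came from in doubt. The median peak of a list had an enrichment between 5.6 and 5.83, so that only the peaks of *Sirt5* in Pax5WT replicate 1 and K198R replicate 2 stood above it.

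The promoters of the 3 sirtuins with a peak in more than 1 list are shown because Pax5 summits fell inside them. Each is 300 bases of the RefSeq annotation of GRCm38.p6, 250 before a start and 50 from it, written 5′ to 3′ on the strand of the gene. Capitals mark the bases within 10 of a summit. *Sirt5* is read from chr13:43365285-43365584 on the plus strand, *Sirt2* from chr7:28766502-28766801 on the plus strand and *Sirt6* from chr10:81627517-81627816 on the minus strand.
Sirt5: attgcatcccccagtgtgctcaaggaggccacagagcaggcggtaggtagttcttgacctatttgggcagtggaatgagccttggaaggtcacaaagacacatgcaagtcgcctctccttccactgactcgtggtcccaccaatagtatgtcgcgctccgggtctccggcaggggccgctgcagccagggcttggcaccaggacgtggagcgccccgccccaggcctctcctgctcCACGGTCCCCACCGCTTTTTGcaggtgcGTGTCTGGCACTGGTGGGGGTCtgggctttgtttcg
Sirt2: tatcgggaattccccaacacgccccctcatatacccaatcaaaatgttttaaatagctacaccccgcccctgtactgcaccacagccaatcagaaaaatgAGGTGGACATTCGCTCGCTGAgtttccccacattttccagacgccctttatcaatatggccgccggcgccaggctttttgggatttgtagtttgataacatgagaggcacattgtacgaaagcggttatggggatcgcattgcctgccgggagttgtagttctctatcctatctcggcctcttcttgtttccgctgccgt
Sirt6: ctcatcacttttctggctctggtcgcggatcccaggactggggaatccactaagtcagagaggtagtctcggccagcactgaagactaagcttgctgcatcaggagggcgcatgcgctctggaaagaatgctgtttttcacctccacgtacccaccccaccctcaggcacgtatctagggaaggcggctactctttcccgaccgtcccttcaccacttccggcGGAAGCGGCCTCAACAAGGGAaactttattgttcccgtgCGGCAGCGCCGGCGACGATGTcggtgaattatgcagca
Counted from the RefSeq start of each stretch, the *Sirt5* summits lay 4 bases before and 24 and 25 past it, and those of *Sirt6* 17 before and 22 past it. For *Sirt2* only the summit of K198R replicate 2, 140 bases before the start, fell in this stretch, and the Pax5WT summits lay 303 and 343 bases before it. GC content was 62%, 50% and 57.3%, where the median of 32851 mouse promoters of this length was 52.7%. The letters GCGTGAC, a stretch of the Pax5 consensus, or GTCACGC on the other strand were in 0 of the 9 promoters listed for the 7 sirtuins and in 2.09% of all promoters.

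More of the family was called with stage than in any other comparison. Between wild-type pro-B and pre-B cells 3 of the 7 members passed an adjusted p under 0.05, *Sirt7* and *Sirt2* upwards and *Sirt3* downwards, while 40.2% of all tested genes passed. Among *Sirt7*-/- libraries 4 passed, *Sirt7*, *Sirt2* and *Sirt6* upwards and *Sirt3* downwards, while 35.7% of all genes did. The wild-type share is close to that of genes at large, and 4 of 7 in *Sirt7*-/- cells lies above it, by a margin that was not tested. The median log2 fold change of the 7 was 0.25 in wild-type and 0.43 in *Sirt7*-/- cells, where the median of all genes was -0.035 and -0.038. These are bulk libraries, in which fewer cells of a kind and less RNA per cell cannot be told apart.

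**Figure D1:**
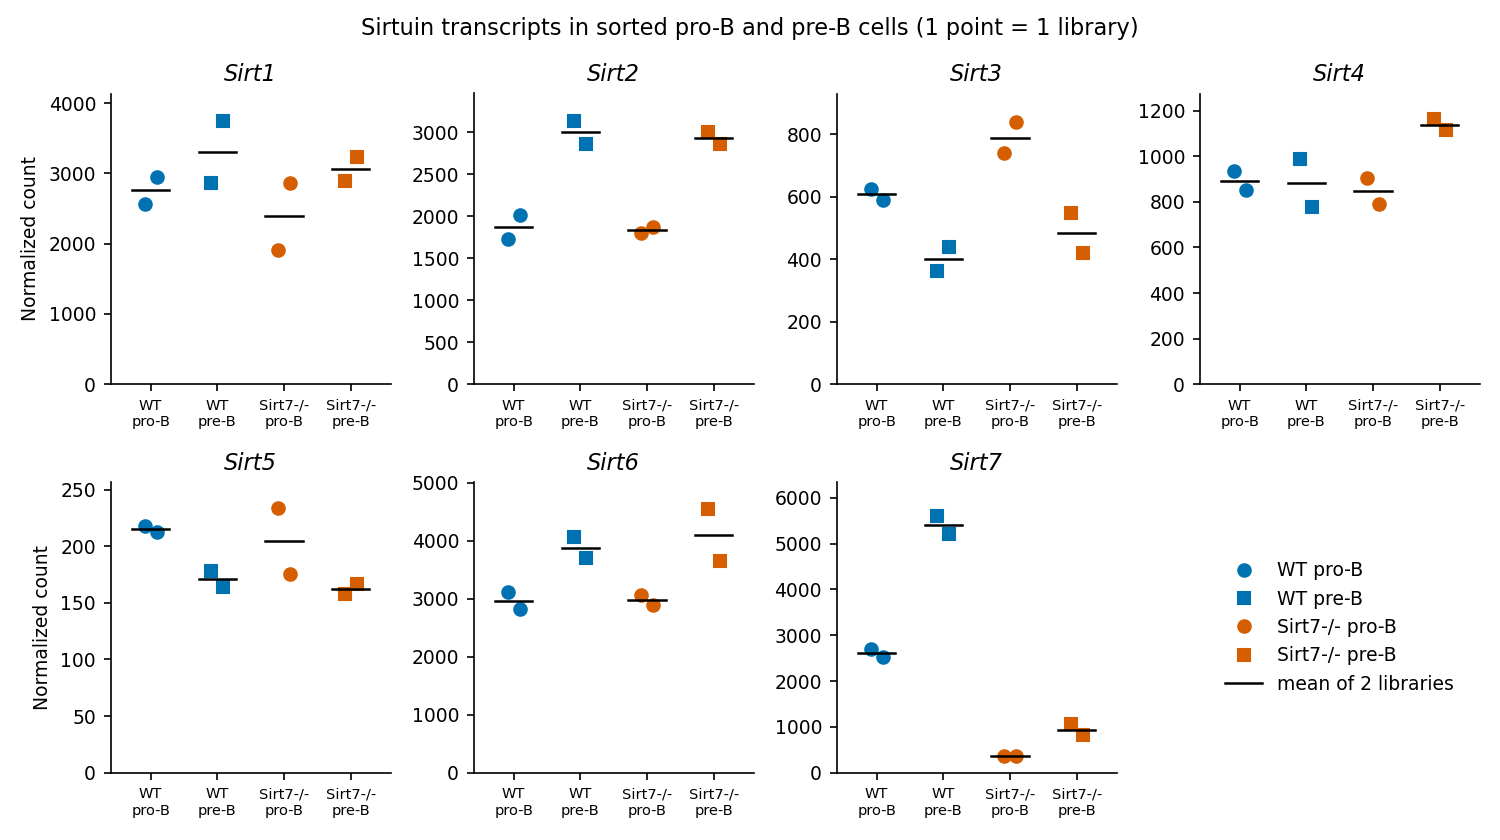
Normalized counts of the 7 sirtuin genes in the 8 sorted libraries, with 1 point per library, blue for wild-type and orange for Sirt7-/-, circles for pro-B and squares for pre-B, and a bar at the mean of 2 libraries. Sirt7 and Sirt2 stood higher and Sirt3 lower in pre-B than in pro-B libraries of both genotypes, and Sirt7 was low in all 4 Sirt7-/- libraries.

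Among the nuclear sirtuins, *Sirt7* had the largest change with stage. Its level in wild-type cells went from 2612 ± 113 in pro-B to 5416 ± 278 normalized counts in pre-B cells (SD, n = 2), a rise of 1.05 log2 units (SE 0.143, limma adjusted p = 0.00157). The counts left in *Sirt7*-/- cells rose as well, from 365 ± 2.16 to 943 ± 174 (SD, n = 2), by 1.36 (SE 0.143, limma adjusted p = 0.000964). *Sirt7* was called in both genotypes under each of the alternatives tried.

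*Sirt6*, a deacetylase tied to DNA repair and to telomeres, had 3119.55 and 2816 normalized counts in wild-type pro-B and 4060 and 3701 in wild-type pre-B libraries. In *Sirt7*-/- cells it had 3061 and 2891 in pro-B and 4554 and 3648 in pre-B libraries. Pre-B libraries lay above pro-B libraries in both genotypes. The log2 fold change was 0.39 in wild-type (SE 0.130, limma adjusted p = 0.052) and 0.45 in *Sirt7*-/- cells (SE 0.130, limma adjusted p = 0.0338), so that only the second passed, while the difference between the 2 was 0.067 (95% interval -0.37 to 0.50, limma adjusted p = 0.998). With the mouse as a replicate block the wild-type difference passed as well (limma adjusted p = 0.0272). It also passed in edgeR (0.0469), in DESeq2 (0.0261) and with only the groups compared in the limma fit (0.0482). The call in *Sirt7*-/- cells was lost with libraries scaled to equal totals (0.35, limma adjusted p = 0.0845), with no filter (0.0539), with only the groups compared (0.0819) and without *Sirt7*-/- pre-B replicate 1 or either *Sirt7*-/- pro-B library (limma adjusted p between 0.0914 and 0.143).

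*Sirt1*, a deacetylase of p53 and many transcription factors, had 2571 and 2951 normalized counts in wild-type pro-B, 2871 and 3739.7 in wild-type pre-B, 1906 and 2871 in *Sirt7*-/- pro-B and 2887 and 3239.8 in *Sirt7*-/- pre-B libraries. Wild-type stages overlapped, and replicates differed by as much as stages did. The log2 fold change was 0.25 in wild-type (95% interval -0.27 to 0.77, limma adjusted p = 0.4) and 0.39 in *Sirt7*-/- cells (-0.13 to 0.90, limma adjusted p = 0.211). Leaving out 1 library moved it between 0.060 and 0.44 in wild-type and between 0.091 and 0.68 in *Sirt7*-/- cells.

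Cytoplasmic *Sirt2* had 1735 and 2014 normalized counts in wild-type pro-B and 3136 and 2861 in wild-type pre-B libraries. The values of *Sirt7*-/- libraries were 1797 and 1868 in pro-B and 3007 and 2857 in pre-B libraries. Pre-B libraries lay well above pro-B libraries, at nearly the same levels in the 2 genotypes. It rose by 0.68 on the log2 scale in each (SE 0.112, limma adjusted p = 0.00336 in wild-type and 0.00451 in *Sirt7*-/- cells), and was called under each alternative tried.

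Of the 3 mitochondrial sirtuins, 1 was called with stage. *Sirt3*, the main deacetylase of the mitochondrial matrix, had 626 and 588 normalized counts in wild-type pro-B and 363 and 441 in wild-type pre-B libraries, and 739 and 838 against 548 and 420.4 in *Sirt7*-/- libraries. Pre-B libraries were below pro-B libraries in both genotypes. The log2 fold change was -0.60 in wild-type (SE 0.186, limma adjusted p = 0.0395) and -0.71 in *Sirt7*-/- cells (SE 0.186, limma adjusted p = 0.0244). The wild-type call was narrow: with the mouse as a replicate block it was lost (limma adjusted p = 0.0618), as it was with no filter (0.0563), with only the groups compared in the fit (0.0505) and without any 1 of the 4 wild-type libraries (limma adjusted p between 0.0541 and 0.172). In *Sirt7*-/- cells it was lost with only the groups compared (0.0636) and without pre-B replicate 2 or either pro-B library (limma adjusted p between 0.0648 and 0.124).

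*Sirt4*, which represses glutamate dehydrogenase, had 933 and 851 normalized counts in wild-type pro-B and 987 and 776 in wild-type pre-B libraries, which overlapped, a log2 fold change of -0.026 (95% interval -0.40 to 0.34, limma adjusted p = 0.911). *Sirt7*-/- libraries had 904 and 792 in pro-B and 1161 and 1114 in pre-B libraries, 0.43 log2 units higher (SE 0.156, limma adjusted p = 0.0728), which passed with the mouse as a replicate block (limma adjusted p = 0.0456) and in DESeq2 on the recovered reads (0.43, adjusted p = 0.0499). *Sirt5*, a desuccinylase and demalonylase, was the least abundant member per kilobase in sorted cells, and had 213 to 218 normalized counts in wild-type pro-B and 164 to 178 in wild-type pre-B libraries. Its log2 fold change was -0.33 in wild-type (95% interval -0.84 to 0.18, limma adjusted p = 0.26) and -0.32 in *Sirt7*-/- cells (-0.83 to 0.19, limma adjusted p = 0.288).

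**Figure D2:**
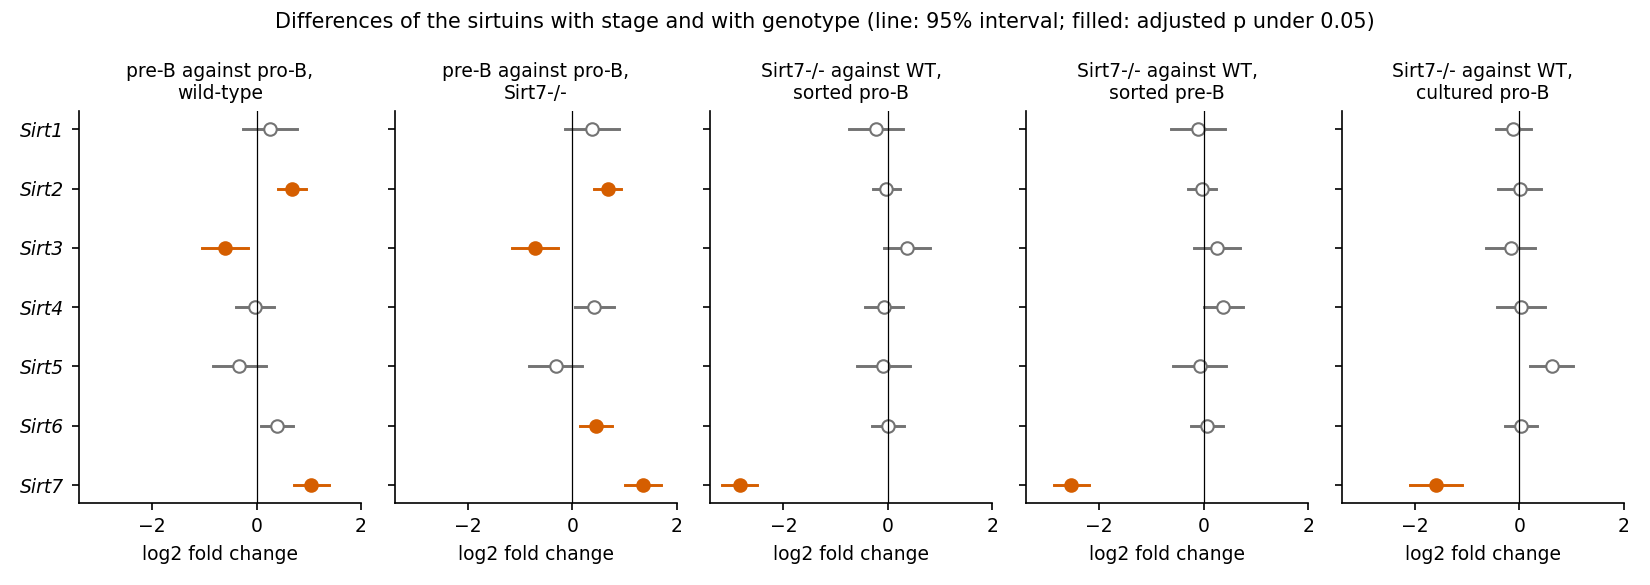
Log2 fold change of each sirtuin on the horizontal axis, with a line for its 95% interval from limma, in 2 comparisons of stage and 3 of genotype; filled points have an adjusted p under 0.05. The 3 comparisons of genotype have 1 filled point each, that of Sirt7, whereas stage has 3 in wild-type and 4 in Sirt7-/- cells.

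The change with stage was then compared between genotypes. Of the 7 members, 0 passed the test of the difference between the 2 stage effects in limma, where 0.00567% of all genes passed. At an unadjusted p under 0.05 there were 0 members, where 5.43% of all genes were under it. edgeR and DESeq2 on the recovered reads called 0 members as well, and 1 and 104 of all genes. The differences of the log2 fold changes, *Sirt7*-/- minus wild-type, lay between -0.11 for *Sirt3* and 0.45 for *Sirt4*. That of *Sirt4* had a 95% interval of -0.07 to 0.97 (limma adjusted p = 0.911) and that of *Sirt7* was 0.31 (-0.18 to 0.79, limma adjusted p = 0.955). For *Sirt2* it was -0.0021 with an interval of -0.38 to 0.37, whose bounds are smaller than its change of 0.68 with stage.

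Loss of *Sirt7* was followed in 3 comparisons, and *Sirt7* was the only member called in each. The share of all genes called was 0.0623% in sorted pro-B, 0.085% in sorted pre-B and 0.557% in cultured pro-B cells, so that few genes of any kind passed in limma. At an unadjusted p under 0.05 the other 6 members gave 0 in pro-B cells, 1 in pre-B cells, which was *Sirt4*, and 1 in cultured cells, which was *Sirt5*, where 5.94%, 13.6% and 9.68% of all genes were under it. edgeR and DESeq2 on the recovered reads of the sorted cells also called *Sirt7* and 0 of the other 6, where edgeR called 10 of all genes in pro-B and 5 in pre-B cells and DESeq2 called 128 and 728. With only the groups compared in the limma fit, and so fewer libraries behind the estimate of spread, 0 genes passed in each of the 3 comparisons, and the adjusted p of *Sirt7* was 0.118, 0.276 and 0.128.

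Mitochondrial *Sirt3* differed most of the other 6 in sorted pro-B cells. Both *Sirt7*-/- libraries (739 and 838 normalized counts) lay above both wild-type libraries (626 and 588), a log2 fold change of 0.37 (95% interval -0.07 to 0.82, limma adjusted p = 0.888). In pre-B cells the difference was 0.26 (-0.18 to 0.70, limma adjusted p = 0.577) and lay between 0.072 and 0.45 without 1 library, and in cultured cells it was -0.17 (-0.63 to 0.30). *Sirt4* in sorted pre-B cells had 1161 and 1114 normalized counts in *Sirt7*-/- libraries, above 987 and 776 in wild-type libraries, with a log2 fold change of 0.38 (0.01 to 0.75, limma adjusted p = 0.355). Without 1 library this difference lay between 0.20 and 0.55. The differences of *Sirt4* were -0.07 in sorted pro-B and 0.03 in cultured cells.

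*Sirt5* differed most among the other 6 in cultured cells. The *Sirt7*-/- libraries with EV had 389 and 461 normalized counts and the wild-type libraries had 243 and 309, with no overlap. The log2 fold change was 0.63 (SE 0.178, 95% interval 0.21 to 1.04, limma adjusted p = 0.23), which did not pass, and in sorted cells the difference was -0.09 in pro-B and -0.07 in pre-B cells. In the same cultured libraries all 5 mature B markers tested had higher means in *Sirt7*-/- cells (median log2 fold change 1.59), with sums of 2931 and 4056 normalized counts against 1202 and 1255, mostly *Ighd*. NK cell markers had higher means in 2 of 2 (1.32) and T cell markers in 3 of 4 (0.29), while 9 of 9 cell cycle genes (-0.15), 4 of 6 stroma (-0.15) and 3 of 3 myeloid markers (-0.063) had lower means, none of them called. B progenitor markers had lower means in 9 of 11 (-0.31), of which *Il7r*, a chain of the IL-7 receptor, was called (-0.89, limma adjusted p = 0.0234). The part of these markers in the values of the sirtuins was not tested. *Sirt1*, *Sirt2* and *Sirt6* had log2 fold changes between -0.24 and 0.07 in the 3 comparisons, each with a 95% interval that held 0. For *Sirt2* in sorted cells these intervals were -0.29 to 0.24 and -0.30 to 0.23, and for *Sirt6* -0.30 to 0.31 and -0.24 to 0.38. For the less even *Sirt1* they were -0.75 to 0.28 and -0.62 to 0.42, so that the first reaches past the size of the change that *Sirt2* had with stage.

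Genes beside *Sirt7* were examined because the same chromosome carries the deletion, a set chosen after values were seen. Of the 11 protein-coding genes within 50 kb, 10 were tested in the sorted table and 9 in the cultured table, and 1, 0 and 3 passed in sorted pro-B, sorted pre-B and cultured cells. The shares of all genes called were 0.0623%, 0.085% and 0.557%. *Pcyt2*, which makes CDP-ethanolamine for phospholipid synthesis, lies at chr11:120610087-120617936 on the same strand and starts 436 bases beyond the 3′ end of *Sirt7*. Sorted pro-B libraries had 569 and 634 normalized counts of *Pcyt2* in *Sirt7*-/- and 2665 and 2582 in wild-type cells. Sorted pre-B libraries had 1003 and 628 against 2395 and 2439.9. Cultured libraries had 567 and 424 against 3378 and 2839. The genotypes were far apart in each comparison, with log2 fold changes of -2.13 (SE 0.211, limma adjusted p = 0.0421), -1.61 (SE 0.211, limma adjusted p = 0.0715) and -2.66 (SE 0.227, limma adjusted p = 0.00781). Leaving out 1 library moved the log2 fold change in sorted pre-B cells between -1.94, without *Sirt7*-/- replicate 1, and -1.27. The call in sorted pro-B cells was lost with the replicate number as a block (limma adjusted p = 0.0663), with no filter (0.105), with only the groups compared (0.118) and without any 1 of its 4 libraries (limma adjusted p between 0.131 and 0.272), and that in cultured cells with only the groups compared (0.0591) and without *Sirt7*-/- replicate 2 (0.0599), while the log2 fold changes stayed between -2.20 and -2.05 and between -2.87 and -2.45.

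*Arhgdia*, 36748 bases from *Sirt7*, and *P4hb*, a protein disulfide isomerase 45119 bases away, differed the other way. DESeq2 on the recovered reads of sorted pro-B and pre-B cells called *Arhgdia* (adjusted p = 0.00724 and 0.00021) and *P4hb* (adjusted p = 0.0018 and 0.000276), and *Pcyt2* in pre-B cells as well (adjusted p = 1.25e-08), whereas edgeR called none of these 5. In sorted pro-B cells the mean of *Arhgdia* was 100215 normalized counts in *Sirt7*-/- and 56171 in wild-type libraries, and that of *P4hb* was 17665 and 8642. *Arhgdia* had log2 fold changes of 0.82, 0.95 and 0.92 in sorted pro-B, sorted pre-B and cultured cells (limma adjusted p = 0.479, 0.126 and 0.0172), and *P4hb* of 1.01, 1.07 and 0.99 (limma adjusted p = 0.474, 0.147 and 0.0459). With only the groups compared the cultured calls of *Arhgdia* (0.128) and *P4hb* (0.198) were lost, as was that of *P4hb* with no filter (0.0968). Without any 1 of the 4 cultured libraries the adjusted p of *Arhgdia* was between 0.0566 and 0.159, and without either *Sirt7*-/- library or wild-type replicate 1 that of *P4hb* was between 0.0881 and 0.264. *Mafg*, which overlaps *Sirt7* by 124 bases on the same strand, had log2 fold changes of -0.46, -0.24 and -0.06, none of them called (limma adjusted p = 0.84, 0.621 and 1). With 1 deletion allele, differences that come from the deleted DNA and from the lack of SIRT7 cannot be told apart.

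**Figure D3:**
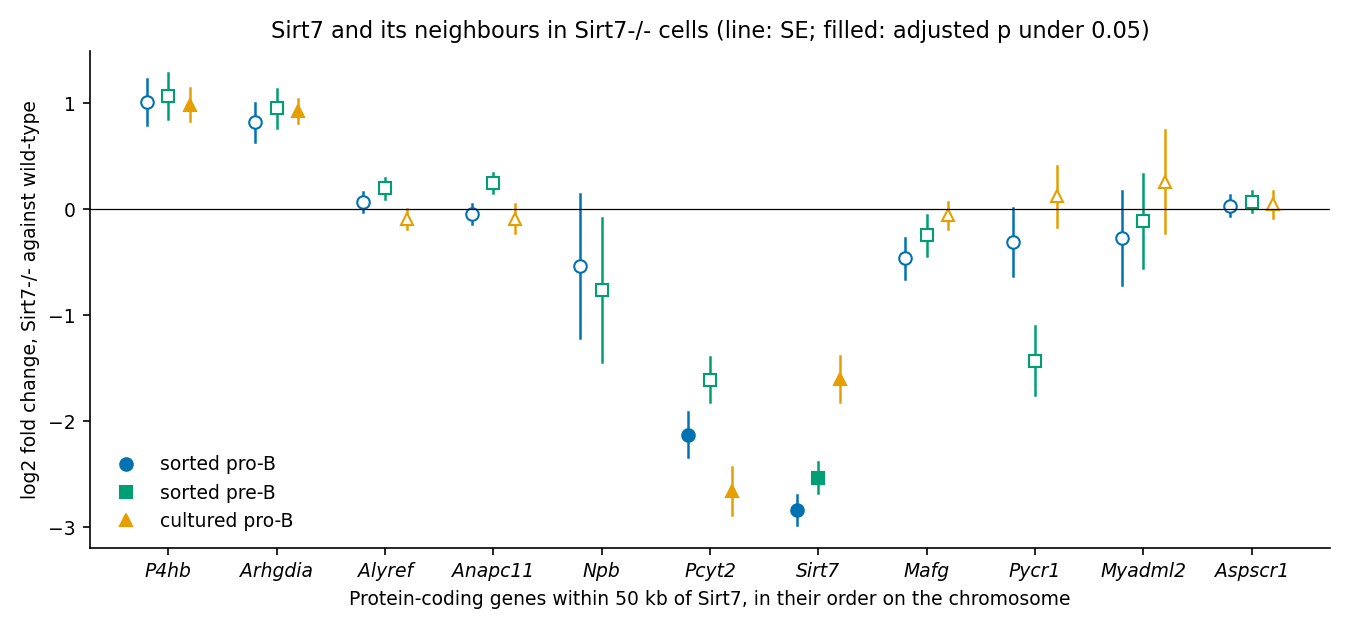
Log2 fold change of Sirt7-/- against wild-type cells on the vertical axis, with a line for its SE, for Sirt7 and 10 protein-coding genes within 50 kb in chromosome order, in sorted pro-B (circles), sorted pre-B (squares) and cultured (triangles) cells; filled points have a limma adjusted p under 0.05. Pcyt2, next to Sirt7, lay between -2.66 and -1.61, and Arhgdia and P4hb lay between 0.82 and 1.07.

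Pax5 peaks were also found beside *Sirt7* and *Sirt2*, at sites named after values were seen. The flanks of the other members are not described here. A peak with its summit 496 to 595 bases beyond the 3′ end of *Sirt7*, over the start of *Pcyt2*, was in all 6 lists. Its enrichment over input was 7.50 and 7.15 for K198Q, 11.1 and 11.3 for K198R and 10.4 and 12.1 for Pax5WT, above at least 73.8% of the peaks of each list. Another lay 289 to 393 bases beyond the 3′ end of *Sirt2*, near the start of *Rinl*, in all 6 lists, with enrichments between 4.73 and 9.63.

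The Pax5 forms were tested next. In *Pax5*-/- cells Pax5 had 2201 and 2103 normalized counts with EV, 6458 and 6152 with Pax5WT, 8918 and 8963 with K198Q and 21161.7 and 16609.5 with K198R, so that transcripts named Pax5 were present with EV too and the forms were not at equal levels. Of the 7 sirtuins, 0 passed in limma for Pax5WT, K198Q or K198R against EV, where 3.25%, 0.922% and 9.92% of all genes passed, and 0 for K198Q or K198R against Pax5WT, where 0.0225% and 2.87% passed. At an unadjusted p under 0.05 the counts were 0, 0, 2, 0 and 0, where 14.4%, 7.86%, 22.9%, 3.46% and 12.7% of all genes were under it. The median log2 fold change of the 7 was -0.20, -0.072 and -0.097 against EV, where that of all genes was 0.0046, -0.0065 and 0.013. In the same comparisons 9, 7 and 8 of the 11 B progenitor markers tested rose. Of the other marker lists *Cr2* and *Lyz2* rose and *Jchain*, *Nkg7* and *Pdgfrb* fell with Pax5WT and with K198R. *Cr2* was at 0 in both EV libraries, so that it passed the filter on low values through other groups only. With K198R *H2-Aa*, *Mpo*, *Csf1r* and 3 of 5 T cell markers, *Cd3g*, *Thy1* and *Zap70*, fell too. No marker of these other lists was called with K198Q. The part of these markers in the values of the sirtuins was not tested.

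*Sirt3* and *Sirt7* were the members with the lowest unadjusted p for K198R. *Sirt3* had 1490.5 and 1386 normalized counts with EV, 1247 and 1222 with Pax5WT, 1247 and 1254 with K198Q and 1188 and 1179 with K198R. Both EV libraries lay above the other 6. The log2 fold changes against EV were -0.22, -0.20 and -0.28, the last with SE 0.095 and a limma adjusted p of 0.122. Replicates had been made on different days, and with the replicate number as a block *Sirt3* passed for K198R (limma adjusted p = 0.0352), the 1 sirtuin to do so, while the number of all genes called went from 1324 to 2834. *Sirt7* had 2382 and 2126 with EV, 1707 and 2020.1 with Pax5WT, 2098 and 1817 with K198Q and 1937 and 1645 with K198R, so that EV was again highest, with log2 fold changes of -0.28, -0.20 and -0.33 (limma adjusted p = 0.433, 0.962 and 0.197). The 3 comparisons share the EV libraries. *Sirt2* had 1095 and 1081 with EV, 938 and 929.6 with Pax5WT, 995 and 991 with K198Q and 1042 and 1044 with K198R, and its difference for Pax5WT was -0.22 log2 units (SE 0.097, limma adjusted p = 0.361). *Sirt1*, *Sirt4*, *Sirt5* and *Sirt6* had log2 fold changes between -0.20 and 0.16 against EV.

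With *Sirt7*-/- cells carrying EV as the reference, 0 of the 7 members passed in limma with Pax5WT (0.0366% of all genes) and 0 with K198R (4.83%), and 0 and 1 were under an unadjusted p of 0.05, as were 9.91% and 18.4% of all genes. Pax5 had 25995 and 37113.5 normalized counts with EV, 43024 and 43259.6 with Pax5WT and 38690 and 45426 with K198R, and did not pass either (limma adjusted p = 0.426 and 0.241). *Sirt3* had 805 and 626 with EV, 689 and 520.1 with Pax5WT and 527 and 462 with K198R. The K198R libraries lay below both EV libraries, with a difference of -0.52 log2 units (SE 0.201, 95% interval -0.99 to -0.06, limma adjusted p = 0.208). It passed with the replicate number as a block (limma adjusted p = 0.0247), where the number of all genes called went from 659 to 1588. The difference with Pax5WT, whose libraries overlapped those with EV, was -0.25 (limma adjusted p = 0.798). *Sirt4* had 191 and 183 with EV and 212 and 263 with K198R, a log2 fold change of 0.34 (limma adjusted p = 0.43). *Sirt7* stayed at 325 to 407 normalized counts in the 6 *Sirt7*-/- libraries. Over all 8 libraries of this table the highest *Sirt7* value was 4.08-fold the lowest, whereas the widest range of any other sirtuin was 1.91-fold, that of *Sirt3*. In the same comparison of K198R with EV, markers of other cells differed as well. Of the 5 mature B markers tested 3 rose, *Cd74*, *H2-Aa* and *Ighd* (median of the 5 2.82), and 2 of 3 plasma cell markers fell, *Jchain* and *Prdm1* (median -1.76). Among B progenitor markers 1 of 11 rose, *Cd79a*, and 2 fell, *Il7r* and *Il2ra*, while 1 of 4 T cell markers fell, *Lck* (median -1.83), and 1 of 3 myeloid markers, *Lyz2*. All 6 stroma markers tested had higher means with K198R (median 0.78) and with Pax5WT (0.93), none of them called, with sums of 3151 and 4787 normalized counts with EV, 5609.6 and 11315 with Pax5WT and 4224 and 8627 with K198R, led by *Cxcl12*. With Pax5WT 4 of 5 mature B markers had higher means (1.62), and none of any marker list was called. The part of these markers in the values of the sirtuins was not tested.

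Levels of different sirtuins were compared after division by the length of the longest protein-coding transcript, as normalized counts per kilobase. In wild-type pro-B cells *Sirt6* (1569 ± 114) and *Sirt7* (1513 ± 65.4) led and overlapped, and *Sirt2* (885 ± 93.2), *Sirt1* (623 ± 60.7), *Sirt4* (497 ± 32.2), *Sirt3* (378 ± 16.7) and *Sirt5* (88.7 ± 1.52) followed without overlap between neighbours (SD, n = 2). In wild-type pre-B cells *Sirt7* stood first, at 3136 ± 161, ahead of *Sirt6* at 2052 ± 134 and *Sirt2* at 1416 ± 91.8 (SD, n = 2). *Sirt7* then made up 38% and 38.8% of the summed level per kilobase of the family, from 26.7% and 27.8% in wild-type pro-B cells. *Sirt6* led in the *Sirt7*-/- sorted libraries. In these *Sirt7* stood at 4.92% to 10% of the family, and *Sirt1*, *Sirt3* and *Sirt4* overlapped as neighbours in *Sirt7*-/- pro-B cells. The full length of 1727 bases was used for *Sirt7* in these libraries too, although the deletion spares only 381 of them. Shares and orders in *Sirt7*-/- libraries therefore depend on a length that the remaining transcripts may not have.

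The order was another one in culture. In *Pax5*-/- cells with EV *Sirt7* (1305 ± 105) was followed by *Sirt3* (895 ± 46.2) and *Sirt2* (514 ± 4.70), then by *Sirt6*, *Sirt1* and *Sirt5*, which overlapped between 242 and 268, and by *Sirt4* (136 ± 0.251) (SD, n = 2). In cultured wild-type cells *Sirt7* (645 ± 171), *Sirt2* (543 ± 125) and *Sirt3* (499 ± 71.6) overlapped (SD, n = 2). *Sirt2* led in the 6 *Sirt7*-/- libraries, with *Sirt7* again divided by its full length. Over all 24 libraries *Sirt7* was highest in 12, *Sirt6* in 6 and *Sirt2* in 6. *Sirt5* was lowest in each sorted and *Sirt4* in each cultured library. The leading member depended on the length used: with the merged length of all exons *Sirt7* and *Sirt6* led in 8 libraries each, and with the median transcript length *Sirt7* led in 14.

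**Figure D4:**
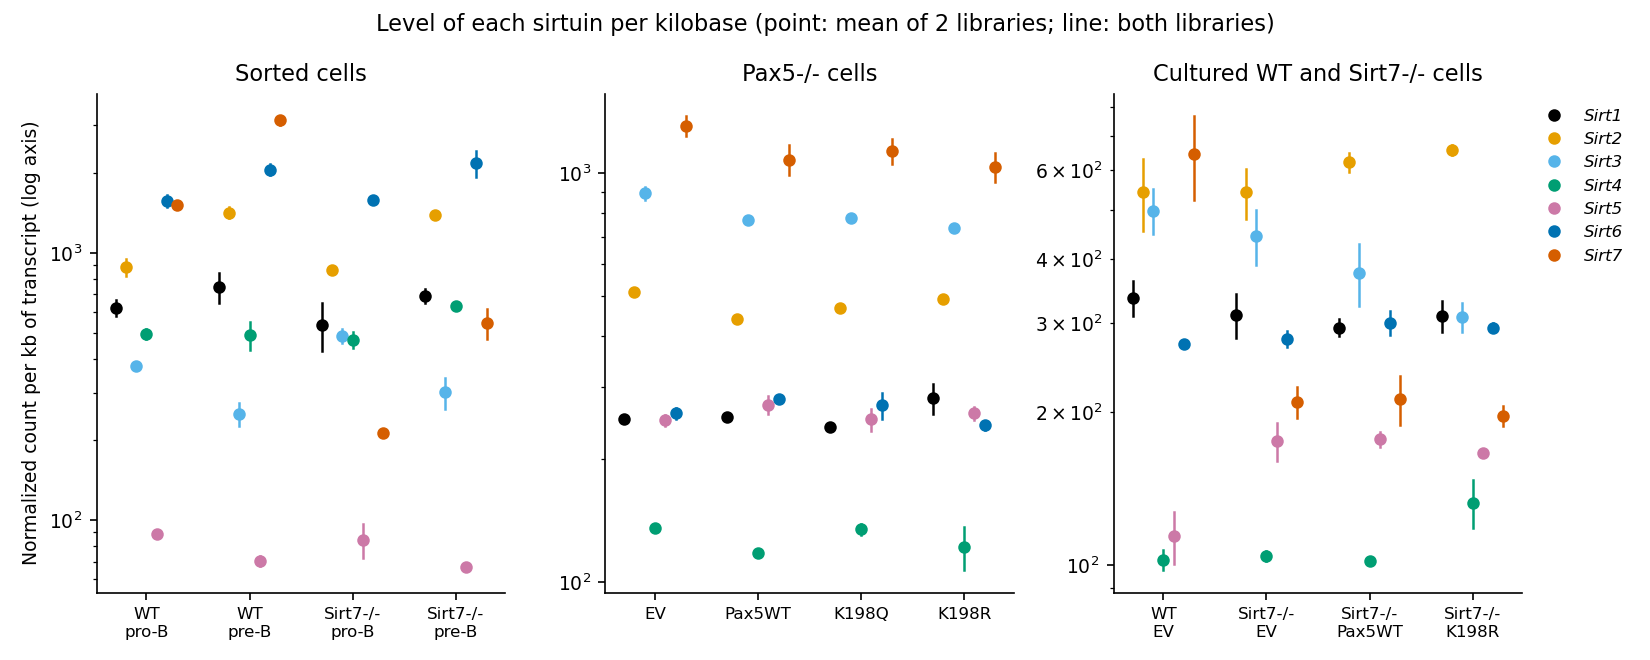
Normalized counts per kilobase of transcript on a logarithmic vertical axis for each sirtuin (colour) in each group, with a point for the mean and a line joining both libraries, in 3 panels for the 3 separately normalized tables. Sirt7 was highest in wild-type pre-B and in all *Pax5*-/- groups, and low in each Sirt7-/- group when divided by its full transcript length.

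On mm10 *Sirt1* lies at chr10:63319005-63381704, *Sirt3* at chr7:140863666-140882309, *Sirt4* at chr5:115478010-115484725 and *Sirt6* at chr10:81621785-81627797, all on the minus strand, and *Sirt2* at chr7:28766735-28788661 and *Sirt5* at chr13:43365496-43395203 on the plus strand. Reads that could be shared with neighbours limit some of the levels. *Sirt2* overlaps *Nfkbib* by 778 bases, *Sirt3* overlaps *Ric8a* by 707 and *Psmd13* by 342, and *Sirt1* overlaps the antisense gene *Gm16145* by 13035, all on the opposite strand. The kit marked strand, and whether quantification used it is not given in the sources used here.

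The genes most like each member were taken by Pearson's r over the 24 libraries, on log2 values centred within each table, among 10504 genes tested in all 3. This is a description, since libraries of a table share their normalization and their groups. *Pcyt2* was the gene most like *Sirt7* (r = 0.837), ahead of *Tmcc1* (0.82) and *Osbpl8* (0.798). For *Sirt2* these were *Arl8a* (0.946), *B4galt1* (0.944) and *Pip4k2c* (0.935), and for *Sirt6* *Abtb1* (0.923), *Gigyf1* (0.917) and *Mppe1* (0.894). *Sirt3* was most like *Jak3* (0.879), *Sytl1* (0.863) and *Kif17* (0.861), *Sirt1* like *Rab5a* (0.826), *Rpf1* (0.801) and *Lysmd3* (0.796), *Sirt4* like *Pirb* (0.809), *Rara* (0.784) and *Crtc3* (0.773), and *Sirt5* like *Gng7* (0.756) and *St3gal5* (0.75). Within the family the closest pair was *Sirt2* and *Sirt6* (r = 0.723), and the most opposed was *Sirt2* and *Sirt3* (r = -0.594).

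Genes that make or use NAD+ were compared across stage beside the sirtuins. Of 19 genes of NAD synthesis 14 were tested in sorted cells. In wild-type cells 3 rose and 3 fell with stage, at a median log2 fold change of -0.028, so that 6 of 14 were called where 40.2% of all genes were. The largest changes were in the kynurenine route, with *Haao* from 92.4 ± 5.11 to 941 ± 355 normalized counts (log2 fold change 3.28, limma adjusted p = 0.00063), *Kynu* from 61.6 ± 17.3 to 499 ± 52.8 (3.02, limma adjusted p = 0.000778) and *Kmo* from 852 ± 22.2 to 3972 ± 625 (2.21, limma adjusted p = 0.000166) (SD, n = 2). *Nmnat3*, the mitochondrial NMN adenylyltransferase, went from 126 ± 11.5 to 54.2 ± 22.5 (-1.26, limma adjusted p = 0.0248). Of 14 other genes of NAD use 12 were tested, and 6 rose and 2 fell, 8 of 12, at a median of 0.54. They included *Cd38*, from 2181 ± 47.5 to 15418 ± 34.6 normalized counts (2.82, limma adjusted p = 0.000125), *Parp3* (0.95), *Parp4* (0.84) and *Parp14* (0.79). *Rps19bp1*, an activator of SIRT1, fell by 0.65 (limma adjusted p = 0.0125), and *Ccar2*, its inhibitor, did not pass (0.12, limma adjusted p = 0.418).

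*Sirt7*-/- cells gave 3 up and 3 down among synthesis genes and 6 up and 3 down among genes of use, where 35.7% of all genes were called, with *Haao* at 3.49, *Kynu* at 3.40, *Kmo* at 2.13, *Nmnat3* at -1.11, *Cd38* at 2.92, *Parp4* at 0.998, *Parp3* at 0.86 and *Parp14* at 0.74 on the log2 scale, and with *Rps19bp1* at -0.65 (limma adjusted p = 0.014). The calls of *Nmnat3* were lost with only the groups compared (limma adjusted p = 0.0635 for wild-type and 0.0515 for *Sirt7*-/- libraries), with no filter for the latter (0.0669), and also without any 1 of the 4 *Sirt7*-/- libraries (limma adjusted p between 0.0763 and 0.162), without wild-type pre-B replicate 2 (0.101) and without wild-type pro-B replicates 1 (0.112) or 2 (0.0789). Those of *Parp3* were lost without wild-type pro-B replicate 2 (0.056), without either *Sirt7*-/- pro-B library (0.067 and 0.0642) and without *Sirt7*-/- pre-B replicate 1 (0.0751). The call of *Rps19bp1* in wild-type cells was lost without pre-B replicate 1 (0.0585) or pro-B replicate 1 (0.0692), and that in *Sirt7*-/- cells without pre-B replicate 1 (0.0545) or pro-B replicate 2 (0.089). With loss of *Sirt7* in sorted pro-B or pre-B cells and in the difference between the stage effects, where 0.0623%, 0.085% and 0.00567% of all genes passed in limma, 0 genes of the NAD lists did.

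**Figure D5:**
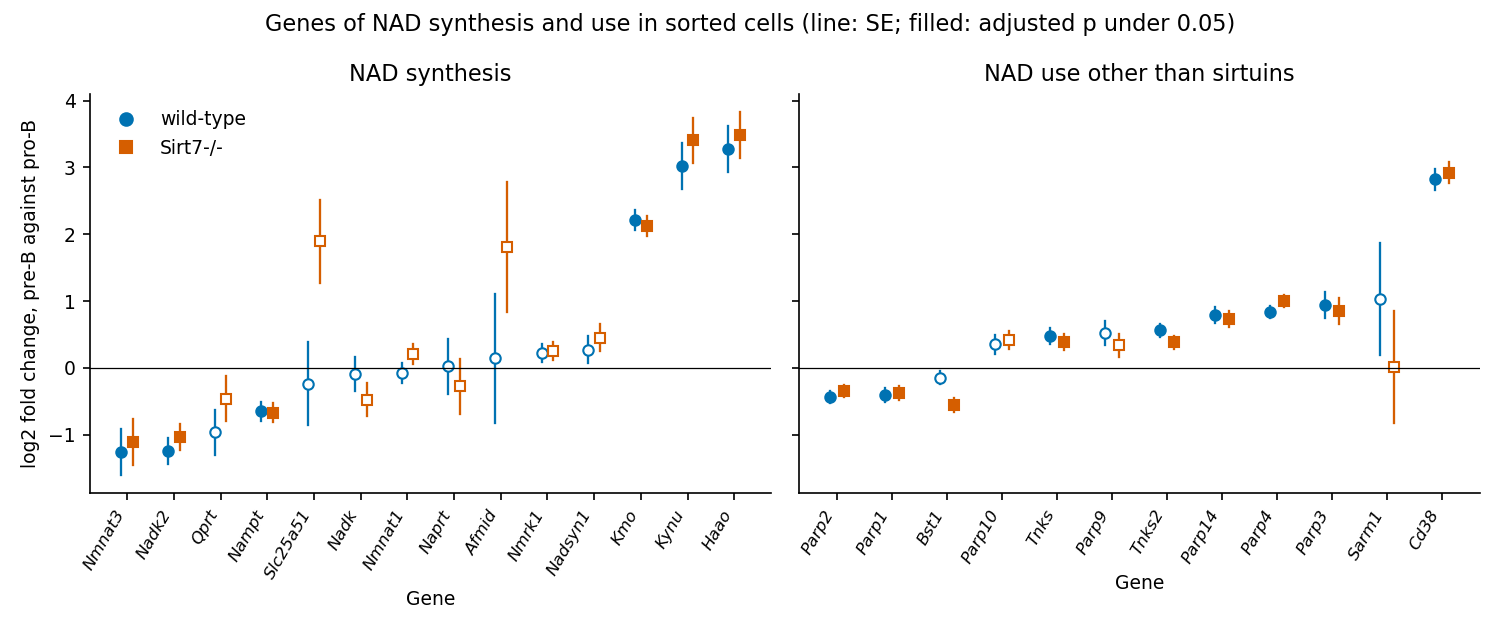
Log2 fold change of pre-B against pro-B cells on the vertical axis, with a line for its SE, for the tested genes of NAD synthesis (left) and of NAD use other than sirtuins (right), in wild-type (circles) and Sirt7-/- (squares) cells; filled symbols have a limma adjusted p under 0.05. Haao, Kynu, Kmo and Cd38 had the largest values, between 2.13 and 3.49.

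In cultured cells *Parp1*, the main poly-ADP-ribose polymerase, was the NAD gene called with loss of *Sirt7*, from 19396 to 12220.3 mean normalized counts (log2 fold change -0.67, SE 0.097, limma adjusted p = 0.0351), and the call was lost with no filter (limma adjusted p = 0.0679), with only the groups compared (0.176) and without any 1 of the 4 libraries (limma adjusted p between 0.098 and 0.257). Of 15 tested genes of synthesis 0 passed in this comparison and of 14 of use 1 did, with 0.557% of all genes. In *Pax5*-/- cells 15 and 13 were tested. With Pax5WT 1 of synthesis rose and 1 fell, and 2 of use rose. With K198Q 1 of use rose, and with K198R 2 of synthesis fell and 4 of use rose. The shares of all genes called were 3.25%, 0.922% and 9.92%. *Bst1*, a relative of *Cd38*, rose from a mean of 111 normalized counts with EV to 746 with Pax5WT, 437 with K198Q and 1129 with K198R (log2 fold changes 2.74, 1.95 and 3.32, limma adjusted p = 0.00118, 0.0091 and 0.00027). With K198R *Cd38* went from 3.54 to 43.1 and *Sarm1* from 5.22 to 35.2 mean normalized counts (limma adjusted p = 0.0102 and 0.0444), levels at which the fitted fold depends on the count of 1 added before taking logs. *Haao* fell with Pax5WT (-0.72, limma adjusted p = 0.0349) and with K198R (-0.93, limma adjusted p = 0.00567), and *Kmo* fell with K198R (-0.55, limma adjusted p = 0.0424). *Kynu* rose with Pax5WT from a mean of 7.17 to 60.5 normalized counts (2.94, limma adjusted p = 0.0196), where the fitted fold depends on the added count too. The EV means of *Cd38*, *Sarm1* and *Kynu* lay under 10, so that these genes passed the filter only with libraries of other groups. *Tnks2*, a tankyrase, rose by 0.47 with Pax5WT and 0.53 with K198R (limma adjusted p = 0.0463 and 0.0141). With K198R in *Sirt7*-/- cells *Slc25a51*, the mitochondrial NAD+ carrier, fell by 0.64 (limma adjusted p = 0.0267). It was the 1 called of 15 genes of synthesis, with 0 of 14 of use, where 4.83% of all genes were called. Without any 1 of the 4 libraries compared, the calls of *Haao*, *Kynu* and *Tnks2* with Pax5WT, of *Sarm1* with K198R and of *Slc25a51* were each lost (limma adjusted p between 0.0501 and 0.296). With K198R the calls of *Kmo* and *Tnks2* were lost without either EV library or K198R replicate 2 (limma adjusted p between 0.0507 and 0.183), and that of *Cd38* without EV replicate 2 (0.0628) or K198R replicate 2 (0.0523). The call of *Bst1* with K198Q was lost without EV replicate 2 (0.0707) or K198Q replicate 1 (0.0951). With no filter the calls of *Haao* (0.0563) and *Tnks2* (0.0815) with Pax5WT and of *Kmo* (0.0665) and *Sarm1* (0.0807) with K198R were lost as well. With only the groups compared *Tnks2* was lost with Pax5WT (0.0515), and *Kmo* (0.113), *Sarm1* (0.0909) and *Tnks2* (0.0825) with K198R.

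Other cell states moved with stage in the same libraries. All 9 cell cycle genes were lower in pre-B cells of both genotypes, and all 6 mature B markers were higher, with sums of 39282 and 45186 normalized counts in wild-type pro-B, 290576 and 173436 in wild-type pre-B, 52071 and 37233 in *Sirt7*-/- pro-B and 418496 and 275597 in *Sirt7*-/- pre-B libraries, *Cd74* the most abundant in all but wild-type pre-B replicate 2, where it was *Ighd*. All 9 T cell markers were lower in pre-B cells of both genotypes, and 7 passed in each. Their sums were 7267 and 7171 in wild-type pro-B, 3347 and 3212 in wild-type pre-B, 7556 and 6879 in *Sirt7*-/- pro-B and 3653 and 3883 in *Sirt7*-/- pre-B libraries, mostly *Lck*, and *Cd3e* and *Cd3g* were at 0 in all 4 pre-B libraries. The 6 erythroid markers summed to 53189 in *Sirt7*-/- pre-B replicate 2 and 32539 in *Sirt7*-/- pro-B replicate 2, against 3974 to 12775 in the other 6 libraries, most often led by *Hba-a1*, and 0 of them was at 0 in any sorted library. Of the 8 myeloid markers 6 had lower means in wild-type pre-B cells (median log2 fold change -1.96) and 7 in *Sirt7*-/- pre-B cells (-1.85), where 3 fell and 1, *Itgam*, rose in each, *Lyz2* and *Csf1r* falling in both, *Cebpa* in wild-type and *Mpo* in *Sirt7*-/- cells. NK cell markers had lower means in 5 of 6 (-2.94) and 6 of 6 (-2.41) and stroma markers in 5 of the 6 tested in each genotype (-0.71 and -1.24), none of them called. Of 6 erythroid markers *Klf1* alone was called, downwards in both genotypes, with lower means for 6 in wild-type (-1.37) and 2 in *Sirt7*-/- cells. Of 3 plasma cell markers *Jchain* fell and *Sdc1* rose in both, and of 12 B progenitor markers 6 rose and 4 fell in wild-type and 5 rose and 4 fell in *Sirt7*-/- cells. Between genotypes 8 of 8 myeloid markers had lower means in *Sirt7*-/- than in wild-type pro-B cells, none of them called, with sums of 26951 and 9605 against 33659.8 and 24580.1 normalized counts. In pre-B cells, again with none called, 9 of 9 cell cycle genes (median log2 fold change 0.52), 6 of 6 mature B markers (0.60) and 6 of 6 erythroid markers (1.85) had higher means in *Sirt7*-/- libraries and 7 of 8 myeloid markers lower means (-1.20). NK cell markers had higher means in 6 of 6 in pro-B (0.62) and 5 of 6 in pre-B cells (1.76), none of them called. Their sums were 674 and 1234 normalized counts in *Sirt7*-/- and 589 and 526 in wild-type pro-B libraries. In pre-B libraries they were 157 and 804 against 360 and 190, so that the genotypes overlapped. Stroma markers had lower means in 5 of the 6 tested in pro-B (-0.60) and in pre-B cells (-1.56), with none called. Of 12 B progenitor markers 1, *Il2ra*, was called lower in pro-B cells (-1.13, limma adjusted p = 0.0133). T cell markers had lower means in 8 of 9 in *Sirt7*-/- pro-B (-0.26) and higher means in 6 of 9 in *Sirt7*-/- pre-B cells (0.51), and erythroid markers higher means in 5 of 6 in pro-B cells (0.33), none of them called. The part of these markers in the differences of the sirtuins was not tested.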

How the data were processed

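RNA-seq was measured in 24 libraries and Pax5 ChIP-seq in 6 lists of peaks. The authors quantified reads with Salmon on mm10, summed them per gene with Tximeta and deposited normalized counts, a signal per gene that they scaled by the median of ratios of DESeq2. Peaks were called by the authors per sample with MACS2 against input after Bowtie2 alignment, and the deposited lists hold the fold enrichment over input and the −log10 of the q-value. Versions of these tools are not given in the sources used here, and the input libraries were not used.

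For each table log2(normalized count + 1) entered a linear model of 4 groups of 2 (limma 3.58.1, R 4.3.3) over genes that reached 10 normalized counts in 2 or more libraries, and p-values were adjusted by Benjamini-Hochberg over all genes tested, in 13 comparisons. Fold changes on this scale understate those of low genes. Whole reads could be recovered from the sorted table by undoing 1 size factor per library (100% of values within 0.01 of a whole number), and edgeR 4.0.16 and DESeq2 1.42.0 were run on them as alternatives. With 1 factor per library undone in the same way, 54.8% and 13.5% of the values of cultured cells came out whole, so that no count test was run. Descriptions and column names of the sorted libraries carry a number that a pro-B and a pre-B library of 1 genotype share. It was read as the mouse, which the labels do not state. Deviations of these pairs from the group means had correlations of 0.156 in *Sirt7*-/- and 0.0798 in wild-type mice. The mouse read in this way was also fitted as a block. Per the study's methods RNA-seq replicates were made on different days, so that the replicate number was fitted as a block in cultured cells too. The deviations of same-numbered cultured libraries had correlations of 0.156 to 0.428. With 2 libraries against 2 an exact permutation test cannot go below p = 0.33, and none was used.

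Named genes were the 7 sirtuins, *Pax5*, up to 4 called genes of each NAD list with the largest log2 fold change per comparison, and the 3 genes most like each sirtuin, of which 1 is not reported here. Members and lists were chosen with earlier results of these data known, and *Pcyt2*, *Arhgdia*, *P4hb*, *Mafg*, *Ccar2*, *Rinl* and the single marker genes were named after their values were seen. Gene positions and lengths are those of GENCODE M21. The limma and edgeR tests were also run on simulated counts with the same dispersion for every gene and no replicate effect. That setting differs from these data, so that it does not give their error rates here. Alternatives were a pseudocount of 0.5, no filter, equal library totals, only the groups compared, replicate blocks and leaving out each library, with a window of 5000 bases, a q-value of 0.001 or the gene body for peaks.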

Additional observations from a re-analysis of the deposited data

How the results depend on the processing

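The calls of *Sirt2* and *Sirt7* with stage held under every alternative run in both genotypes. With limma on only the groups compared, the number of sirtuins called was 0 for loss of *Sirt7* in sorted pro-B, sorted pre-B and cultured cells (*Sirt7* adjusted p = 0.118, 0.276 and 0.128) and 2 for stage in *Sirt7*-/- cells; with no filter it was 0 in cultured cells (*Sirt7* adjusted p = 0.0576). Leaving out 1 library gave 0 to 1, 0 to 1 and 2 to 3 sirtuins for sorted pro-B loss, cultured loss and stage in *Sirt7*-/- cells. With the replicate number as a block 1 sirtuin passed for K198R against EV in *Pax5*-/- cells and 1 in *Sirt7*-/- cells, *Sirt3* in both (adjusted p = 0.0352 and 0.0247). With the mouse as a replicate block 0 genes were called for the difference between stage effects, and the pairing changed no call of a sirtuin other than those given for *Sirt3*, *Sirt4* and *Sirt6* with stage.

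Numbers of all genes called moved by more than 1.5 times under several alternatives. DESeq2 called 128 genes against 11 in sorted pro-B loss, 728 against 15 in pre-B loss and 104 against 1 for the difference between stage effects, and edgeR called 5 in pre-B loss. A pseudocount of 0.5 gave 25 in pre-B loss and 5 against 3 for K198Q against Pax5WT. The replicate number as a block gave 7 in pre-B loss, 1343 against 434 for Pax5WT, 363 against 123 for K198Q and 2834 against 1324 for K198R against EV, 29 for K198Q and 1004 against 383 for K198R against Pax5WT, 288 against 76 for cultured loss, and 268 against 5 for Pax5WT and 1588 against 659 for K198R in *Sirt7*-/- cells. No filter gave 260 for Pax5WT and 73 for K198Q against EV, 231 for K198R against Pax5WT, 44 for cultured loss and 423 for K198R in *Sirt7*-/- cells. Only the groups compared gave 0 for each loss of *Sirt7* and for Pax5WT in *Sirt7*-/- cells, 673 for K198R against EV, and 7 and 40 for K198Q and K198R against Pax5WT. Leaving out 1 library gave 0 to 15 genes in pro-B loss, 14 to 177 in pre-B loss, 4698 to 5244 and 3705 to 5836 for stage in wild-type and *Sirt7*-/- cells, 0 to 12 for the difference between these, 89 to 166, 31 to 67 and 561 to 1484 for Pax5WT, K198Q and K198R against EV, 0 to 1 and 20 to 576 for K198Q and K198R against Pax5WT, 3 to 60 in cultured loss, and 1 to 5 and 63 to 228 for Pax5WT and K198R in *Sirt7*-/- cells. Fewer samples enter the fits on only the groups compared or without 1 library. Without 1 library the numbers went up in some fits and down in others. Why the numbers moved was not tested.

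Signs turned only for fold changes that were not called (largest size 0.24 on the log2 scale, smallest adjusted p 0.68). For the difference between stage effects, *Sirt5* was -0.0020 with equal totals, -0.0013 in edgeR and -0.0046 in DESeq2, and *Sirt2* was 0.0014 in edgeR. With equal totals *Sirt4* was 0.017 for K198Q against EV and 0.00053 for Pax5WT in *Sirt7*-/- cells, and *Sirt1* was 0.028 for K198R there. Leaving out 1 library gave log2 ranges across 0 as follows. For the difference between stage effects they were -0.16 to 0.43 for *Sirt1*, -0.11 to 0.11 for *Sirt2*, -0.30 to 0.080 for *Sirt3*, -0.19 to 0.22 for *Sirt5* and -0.093 to 0.23 for *Sirt6*, and for wild-type stage -0.20 to 0.15 for *Sirt4*. For pro-B loss they were -0.53 to 0.060 for *Sirt1*, -0.14 to 0.078 for *Sirt2*, -0.17 to 0.021 for *Sirt4*, -0.29 to 0.12 for *Sirt5* and -0.068 to 0.079 for *Sirt6*. For pre-B loss they were -0.29 to 0.091 for *Sirt1*, -0.097 to 0.035 for *Sirt2* and -0.088 to 0.23 for *Sirt6*. For cultured loss they were -0.26 to 0.026 for *Sirt1*, -0.23 to 0.24 for *Sirt2*, -0.35 to 0.013 for *Sirt3*, -0.035 to 0.093 for *Sirt4* and -0.022 to 0.084 for *Sirt6*. In *Pax5*-/- cells they were -0.0065 to 0.026 for *Sirt1* with Pax5WT, -0.052 to 0.035 for *Sirt4*, -0.082 to 0.095 for *Sirt5* and -0.044 to 0.16 for *Sirt6* with K198Q, and -0.34 to 0.011 for *Sirt4* with K198R against EV, and against Pax5WT -0.16 to 0.050 for *Sirt6* and -0.049 to 0.19 for *Sirt7* with K198Q, and -0.13 to 0.21 for *Sirt4*, -0.14 to 0.0059 for *Sirt5* and -0.18 to 0.065 for *Sirt7* with K198R. In *Sirt7*-/- cells they were -0.22 to 0.067 for *Sirt1*, -0.11 to 0.14 for *Sirt5* and -0.15 to 0.17 for *Sirt7* with Pax5WT, and -0.14 to 0.14 for *Sirt1*, -0.20 to 0.048 for *Sirt5* and -0.19 to 0.014 for *Sirt7* with K198R. Normalized counts of the cultured cells do not give their depth in reads.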
